A study of Mus musculus with 21 samples.

Results

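Complement is a cascade of plasma proteins, and macrophages make several of its components locally. The transcripts of 9 complement genes were followed here in macrophages sorted from mouse kidney: C1qa, C1qb and C1qc (the chains of C1q), C3, C4b, Cfb (factor B), Cfp (properdin), C3ar1 and C5ar1 (the receptors for the fragments C3a and C5a). They were taken by symbol from the deposited count table, and all 9 were found among its 34236 symbols. The RNA came from male C57BL/6J mice at 24 weeks of age, and the labels name no transgene or deletion. In mice labelled RAS a cuff on the right renal artery had produced renal artery stenosis, and in Sham mice the artery was exposed without a cuff. F4/80+CD64+ cells of the kidney were sorted within 5 h into CD11chi macrophages (CD11chiMϕ), CD11clo macrophages (CD11cloMϕ) and kidney-resident macrophages (KRM), the first 2 being monocyte-derived per the labels. KRM were gated on bright F4/80 and intermediate CD11b and CD11c. There were 21 libraries: 3 of CD11chiMϕ Sham, 4 of CD11chiMϕ RAS, 3 of CD11cloMϕ Sham, 4 of CD11cloMϕ RAS, 4 of KRM Sham and 3 of KRM RAS. The labels do not say whether a library is 1 animal, so p-values measure the spread between libraries, which may be technical. Each library is a bulk sample, in which fewer cells of a type and less RNA per cell cannot be told apart.

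C1q starts the classical pathway when it binds antibody, dying cells or other surfaces, and the pathway then cleaves C4 and C2 into an enzyme that cleaves C3. Factor B forms the C3-cleaving enzyme of the alternative pathway, which properdin stabilizes. Fragments released from C3 and C5 attract and activate myeloid cells through C3AR1 and C5AR1. Tissue macrophages are a main source of C1q, whereas liver makes most of the circulating C3, C4 and factor B, and kidney epithelium can make C3, C4 and factor B too.

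Levels are in CPM, the counts of a gene relative to the library total and scaled by TMM factors, which equalize the bulk of the genes between libraries. Totals were 6891137 to 18592376 counts per library. All 8 macrophage markers examined, among them Csf1r, Mertk and Fcgr1, were counted in every library. Markers of other cells were not equal between libraries, although the sort had a dump channel meant to remove granulocytes, erythrocytes and T, B and NK cells. The summed level of 10 proximal tubule markers was 21372 CPM in CD11chiMϕ Sham 3, 6111 CPM in CD11cloMϕ Sham 3 and 3316 CPM in KRM Sham 3, against 185 to 949 CPM in the other Sham libraries. The 8 distal nephron markers summed to 4676 and 3533 CPM in KRM RAS 2 and 3, against 135 CPM in KRM RAS 1 and 12.6 to 226 CPM in KRM Sham. The 8 dendritic cell markers summed to 5333 and 5729 CPM in CD11chiMϕ RAS 3 and 4, against 1203 and 2160 CPM in CD11chiMϕ RAS 1 and 2. The part of these libraries in the results was not tested, and values without them stand beside the results they touch.

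The 9 genes lie on 5 chromosomes of GRCm38. C1qb (chromosome 4, 136880129 to 136886187), C1qc (136889804 to 136893065) and C1qa (136895917 to 136898803) are neighbours on the minus strand of chromosome 4 within 18675 bases. C4b (34728380 to 34743882) and Cfb (34856374 to 34862518) are both on chromosome 17, 112491 bases apart, and C3 is farther along it (57203970 to 57228136). Cfp is on chromosome X (20925454 to 20931555), C3ar1 on chromosome 6 (122847138 to 122856161) and C5ar1 on chromosome 7 (16246743 to 16259540). All are protein-coding genes on the minus strand. C4b has a near-identical copy, C4a, and Cfb overlaps the readthrough gene Gm20547, so reads of these 2 genes may have been divided and their values are uncertain. C3 and Cfb also contain annotated microRNA genes.

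Promoters were read for C1qb and C3, the genes with the highest level per length in KRM Sham and the largest response to stenosis. RefSeq promoter entries on GRCm38.p6 were found for 6 of the 9 genes. The 250 bases before each start are given from 5′ to 3′ on the gene's strand, with the match to a searched motif in capitals.
C1qb (chr4:136886201-136886450, minus strand): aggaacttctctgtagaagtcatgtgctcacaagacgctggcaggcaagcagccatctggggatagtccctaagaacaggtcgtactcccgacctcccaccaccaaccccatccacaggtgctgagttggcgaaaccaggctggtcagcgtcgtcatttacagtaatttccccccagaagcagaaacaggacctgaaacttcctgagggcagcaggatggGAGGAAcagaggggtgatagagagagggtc
C3 (chr17:57228137-57228386, minus strand): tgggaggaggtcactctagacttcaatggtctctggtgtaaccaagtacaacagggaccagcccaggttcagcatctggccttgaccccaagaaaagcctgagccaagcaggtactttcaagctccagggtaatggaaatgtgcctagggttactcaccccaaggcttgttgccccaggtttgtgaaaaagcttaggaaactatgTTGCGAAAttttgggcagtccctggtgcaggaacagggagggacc
Both strands were searched for 7 motifs, and for each the share of 32851 promoters that hold it is given. They were PU.1 GAGGAA (23.25%), a MAF motif TGCTGAC (3.81%), C/EBP TTGCNNAA (9.56%), a 10-letter NF-kB motif (1.41%), a 10-letter interferon response motif (2.98%), STAT TTCNNNGAA (7.02%) and AP-1 TGANTCA (6.75%). The capitals in C1qb are GAGGAA, the letters bound by PU.1, a factor of the myeloid lineage, beginning 30 bases before the start. The capitals in C3 are TTGCGAAA, a C/EBP match beginning 45 bases before the start. The C1qc promoter held a PU.1 match 193 bases before its start. That of C3ar1 held AP-1 and NF-kB matches 22 and 14 bases before its start, which did not overlap. The promoters of Cfp and C5ar1 held none of the 7 motifs. These matches describe the letters only, and no binding was measured.

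The levels of the 3 C1q chains were highest in KRM Sham. C1qb was at 8380, 6129, 5240 and 5807 CPM in the 4 KRM Sham libraries, and at 4259, 2791 and 2978 CPM in KRM RAS. In CD11chiMϕ it was at 1999, 3070 and 1612 CPM in Sham and at 2199, 2102, 847 and 653 CPM in RAS. In CD11cloMϕ it was at 638, 544 and 945 CPM in Sham and at 700, 1080, 4358 and 1184 CPM in RAS. No library of another group reached the lowest KRM Sham library, whereas KRM RAS overlapped the CD11chiMϕ Sham and CD11cloMϕ RAS groups through 1 library of each. C1qa was at 2583 to 4103 CPM and C1qc at 3270 to 5315 CPM in KRM Sham, with the same order of the 6 group means as C1qb. In that order, from KRM Sham through KRM RAS, CD11chiMϕ Sham, CD11cloMϕ RAS and CD11chiMϕ RAS to CD11cloMϕ Sham, each group after the first overlapped the next. The 3 genes together made up 1.20% to 1.69% of all counts in KRM Sham, 0.66% to 1.04% in KRM RAS and 0.11% to 0.20% in CD11cloMϕ Sham.

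**Figure D1:**
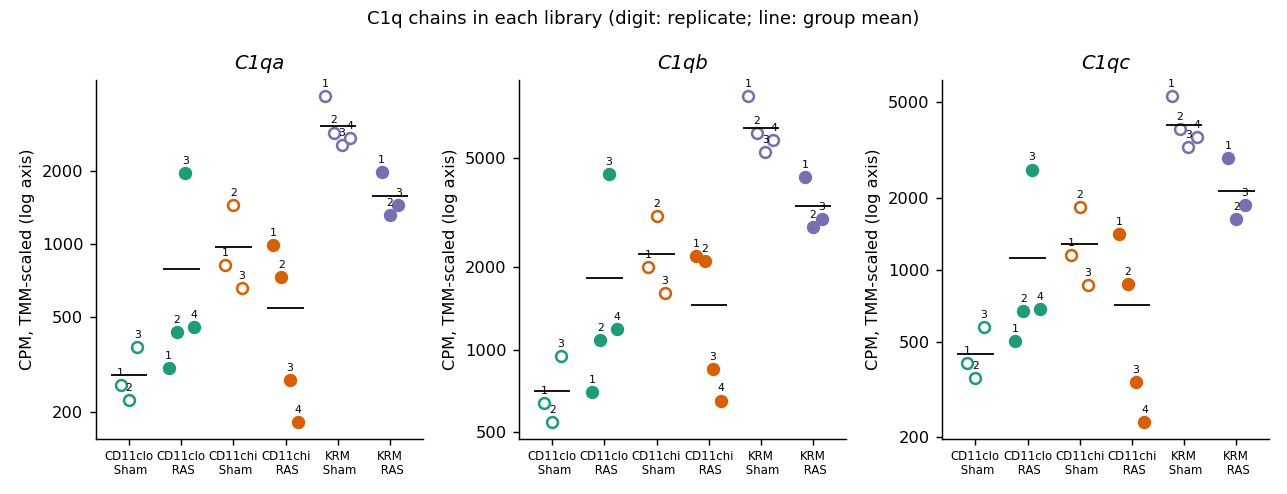
Level of each C1q chain gene in CPM (log axis) by group, with 1 point for each library, its replicate number above it, open points for Sham, filled points for RAS and a line at the group mean. KRM Sham lies above all other groups, and CD11cloMϕ RAS 3 stands apart from the other 3 libraries of its group in every panel.

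Per kilobase of exon, C1qb ranked 4th, C1qa 15th and C1qc 23rd from the highest of 29226 genes in KRM Sham, and 55th, 166th and 205th in CD11cloMϕ Sham. The mature C1q molecule holds its 3 chains in equal number, but their transcripts were not level. Per kilobase, C1qb made up 56.5% ± 3.7 (SD, n = 21 libraries) of the 3 transcripts, C1qa 24.9% ± 2.1 and C1qc 18.6% ± 2.1. With the longest transcript in place of the union of exons the shares were 50.9%, 22.4% and 26.8%, so the order of C1qa and C1qc depends on the length used, while C1qb stayed first. The C1qb share was 53.5% to 54.3% in the KRM Sham libraries and 54.6% to 67.1% in CD11chiMϕ RAS, the group with the widest spread. Across the 21 libraries the log2 CPM of the chains moved together (Pearson r 0.982 to 0.995, a description over libraries of shared groups).

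C3, C4b, Cfb and Cfp were low in KRM Sham, which had the lowest group mean of C3, Cfb and Cfp and the lowest but 1 of C4b. C3, the central component of the cascade, was at 16.5, 25.0, 26.5 and 25.8 CPM in KRM Sham, and at 66.4, 220 and 243 CPM in KRM RAS. In CD11cloMϕ it was at 889, 880 and 707 CPM in Sham and at 494, 878, 392 and 780 CPM in RAS. In CD11chiMϕ it was at 116, 146 and 48.6 CPM in Sham and at 110, 195, 181 and 157 CPM in RAS. KRM Sham and the CD11cloMϕ libraries thus formed separate ends of the range, with no overlap with any other group at either end.

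Cfp was at 27.9, 26.1, 23.0 and 28.6 CPM in KRM Sham, and at 51.7, 82.0 and 84.1 CPM in KRM RAS. In CD11chiMϕ it was at 449, 250 and 159 CPM in Sham and at 366, 876, 1255 and 1291 CPM in RAS. CD11cloMϕ libraries had 426 to 536 CPM in Sham and 248 to 455 CPM in RAS. Both KRM groups lay below every library of the other populations. The 2 highest Cfp libraries, CD11chiMϕ RAS 3 and 4, were also those with the highest dendritic cell marker sums.

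C4b, a substrate of the classical pathway, was at 25.4, 21.2, 31.0 and 22.9 CPM in KRM Sham and at 40.3, 48.5 and 76.8 CPM in KRM RAS. In CD11cloMϕ it was at 242, 198 and 294 CPM in Sham and at 212, 305, 234 and 112 CPM in RAS. In CD11chiMϕ it was at 42.8, 122 and 67.5 CPM in Sham, and at 78.0, 7.61, 4.37 and 6.31 CPM in RAS. CD11chiMϕ RAS 1 stood above the other 3 libraries of its group. That library also had the highest macrophage marker sum of the group, 4503 CPM against 1354 to 1471 CPM.

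Cfb was at 8.30, 9.31, 53.4 and 10.4 CPM in KRM Sham and at 40.8, 47.9 and 47.9 CPM in KRM RAS. In CD11chiMϕ it was at 31.4, 43.7 and 333 CPM in Sham and at 57.8, 72.9, 77.3 and 72.4 CPM in RAS. In CD11cloMϕ it was at 94.0, 50.4 and 220 CPM in Sham and at 114, 96.2, 73.0 and 103 CPM in RAS. The third Sham library was the highest in each population, at 5.73, 8.87 and 3.04 times the mean of the other Sham libraries in KRM, CD11chiMϕ and CD11cloMϕ. These were the libraries with the high proximal tubule marker sums, and the part of those cells in the Cfb level was not tested. None of the other 8 genes was highest in the third Sham library in all 3 populations.

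**Figure D2:**
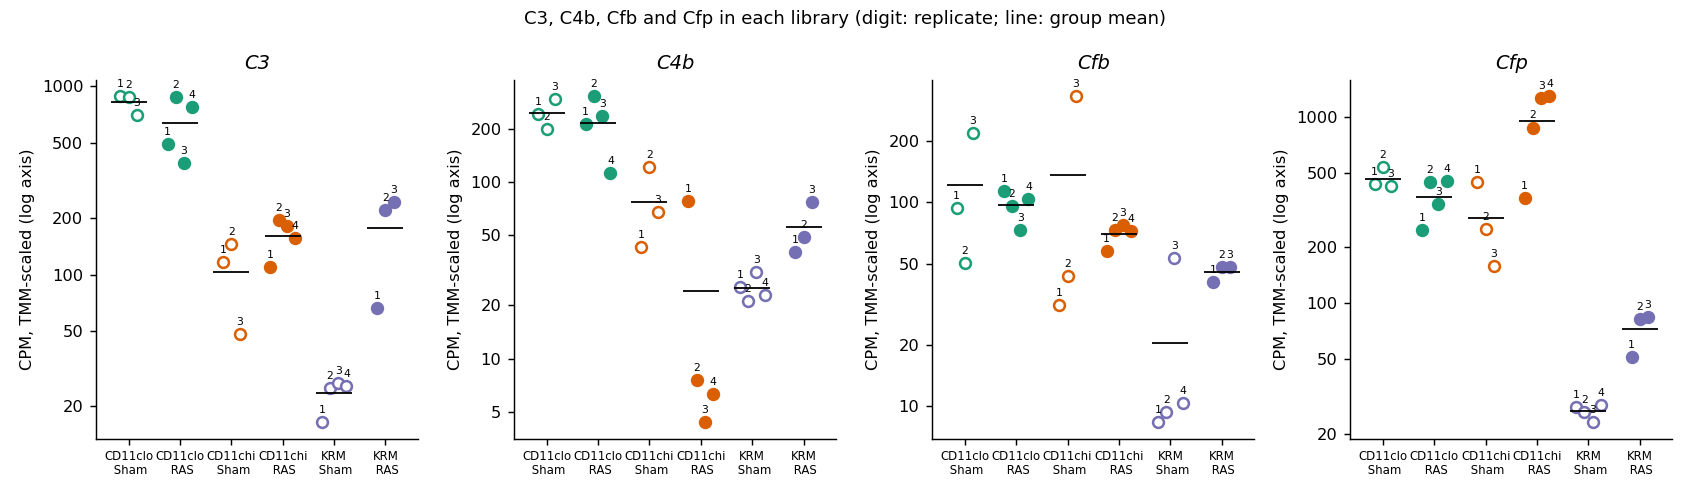
Level of C3, C4b, Cfb and Cfp in CPM (log axis) by group, with 1 point for each library, its replicate number above it, open points for Sham, filled points for RAS and a line at the group mean. All 4 genes are low in KRM Sham, apart from Cfb in KRM Sham 3, and Cfb is highest in library 3 of each Sham group.

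The genes of the anaphylatoxin receptors had high levels in KRM Sham, the first group in the order of C3ar1 means and the second in that of C5ar1. C3ar1 was at 597, 616, 655 and 641 CPM in KRM Sham and at 581, 424 and 576 CPM in KRM RAS. It was at 163, 413 and 102 CPM in CD11chiMϕ Sham and at 288, 99.4, 65.9 and 54.6 CPM in CD11chiMϕ RAS. In CD11cloMϕ it was at 110, 93.1 and 103 CPM in Sham and at 127, 144, 787 and 218 CPM in RAS. CD11cloMϕ RAS 3 was above every KRM library, and the other libraries of monocyte-derived macrophages were below all of them. C5ar1 was at 617, 500, 457 and 534 CPM in KRM Sham and at 301, 327 and 444 CPM in KRM RAS. It was at 225, 309 and 81.2 CPM in CD11chiMϕ Sham and at 189, 78.5, 43.9 and 32.2 CPM in CD11chiMϕ RAS. CD11cloMϕ libraries had 269, 218 and 257 CPM in Sham and 155, 410, 920 and 781 CPM in RAS. The CD11cloMϕ RAS libraries thus ran from below every Sham library except CD11chiMϕ Sham 3 to above every library of the other groups.

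**Figure D3:**
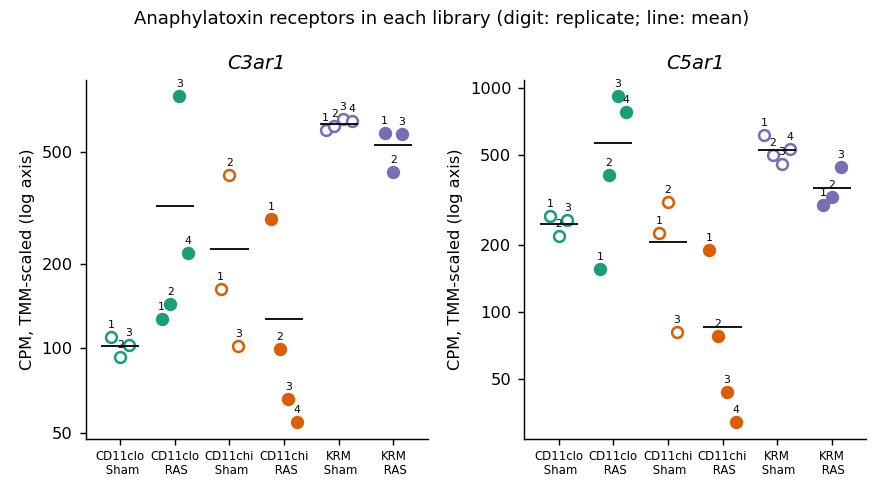
Level of C3ar1 and C5ar1 in CPM (log axis) by group, with 1 point for each library, its replicate number above it, open points for Sham, filled points for RAS and a line at the group mean. KRM Sham libraries are tightly grouped at 597 to 655 CPM for C3ar1 and 457 to 617 CPM for C5ar1, while the CD11cloMϕ RAS libraries are spread widely.

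To ask how the populations differed in Sham kidneys, KRM Sham was compared with each monocyte-derived population over all genes (edgeR quasi-likelihood F test, two-sided, a gene being called at a Benjamini-Hochberg adjusted p below 0.05). Against CD11chiMϕ Sham, 6 of the 9 genes were called, where 5.12% of all genes were. The C1q chains were higher in KRM, with log2 fold changes of 1.62 ± 0.34 (SE) for C1qa, 1.48 ± 0.32 for C1qb and 1.61 ± 0.33 for C1qc (adjusted p = 0.041, 0.046 and 0.0384). Lower in KRM were Cfp (-3.48 ± 0.33, adjusted p = 0.00368), C3 (-2.17 ± 0.35, adjusted p = 0.0186) and C4b (-1.66 ± 0.34, adjusted p = 0.038). Over all genes 1% were called higher and 4.12% lower. The values for C3ar1 (1.44 ± 0.44, adjusted p = 0.109), C5ar1 (1.33 ± 0.40, adjusted p = 0.107) and Cfb (-2.81 ± 1.07, adjusted p = 0.167) did not pass. Deviations from the group mean correlated between same-numbered libraries of these groups (r 0.208 to 0.588, highest in the third). This cannot show that the numbers pair the libraries, because a shift shared by the third libraries also moves the others together. With the replicate number in the fit as a block the count was 2, Cfp (adjusted p = 0.0412) and Cfb (adjusted p = 0.0439). Adjusted p was then 0.122 to 0.180 for C1qa, C1qb, C1qc, C3 and C4b. Of the 7 fits that each left out 1 library, Cfp was called in 7. C3 and the C1q chains were called in 2 of 7, the calls ending without CD11chiMϕ Sham 1 or any 1 of the 4 KRM Sham libraries (adjusted p 0.055 to 0.158). Those fits called 155 to 224 genes over all, against 635 with all libraries. C4b was called in 2 of 7, its call ending without CD11chiMϕ Sham 2 or any 1 of the KRM Sham libraries (adjusted p 0.051 to 0.131). Without the third Sham libraries 8 of the 9 genes were called, Cfb and C5ar1 being added, where 1493 genes were over all, against 635 with them. Markers of other cells differed between these groups too, with 5 of 8 dendritic cell markers lower in KRM (sum 169 to 226 CPM against 500 to 1971 CPM) and 5 of 8 monocyte markers lower (sum 570 to 861 CPM against 434 to 2397 CPM). The macrophage markers summed to 7571 to 8462 CPM in KRM and 1626 to 5458 CPM in CD11chiMϕ. The part of these cells was not tested.

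Against CD11cloMϕ Sham all 9 genes were called, where 41.8% of all genes were, 19.5% higher and 22.3% lower. C3 was 35.7-fold lower in KRM (log2 fold change -5.16 ± 0.21, adjusted p = 1.98e-06), Cfp 18.0-fold lower (-4.17 ± 0.14, adjusted p = 1.03e-06) and C4b 9.79-fold lower (-3.29 ± 0.19, adjusted p = 7.39e-06). C1qa was 10.6-fold higher (3.41 ± 0.25, adjusted p = 2.88e-05), with C1qb and C1qc 8.92- and 8.89-fold higher. C3ar1 was 6.06-fold higher (2.60 ± 0.12, adjusted p = 3.67e-06) and C5ar1 2.09-fold higher (1.07 ± 0.14, adjusted p = 0.000579). These 8 genes did not overlap between the groups, and the share of all genes that did not was not counted here. They were called in all 7 fits that left out 1 library, where 4007 to 5940 genes were over all. Cfb was lower (-2.53 ± 0.77, adjusted p = 0.0295), but its groups overlapped, and the call ended without CD11cloMϕ Sham 1 or 3 or KRM Sham 1, 2 or 4 (adjusted p 0.053 to 0.075). Without KRM Sham 3 its log2 fold change was -3.71 (adjusted p = 0.00143). All 9 calls held with the replicate block, and that of C5ar1 ended in 1 fit over all groups (adjusted p = 0.189). Markers of monocytes moved with these genes, with 8 of 8 lower in KRM (sum 570 to 861 CPM against 4309 to 13691 CPM), as did 8 of 8 macrophage markers, which were higher. Of the neutrophil markers 5 of 5 tested were lower (sum 90.3 to 117 CPM against 906 to 1956 CPM), and of the B and plasma cell markers 4 of 5 tested were higher (sum 943 to 1182 CPM against 209 to 301 CPM). Their part in the differences was not tested.

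Between CD11chiMϕ Sham and CD11cloMϕ Sham, where 1.52% of genes were called, 1 of the 9 was called. C3 was 7.70-fold lower in CD11chiMϕ (log2 fold change -2.95 ± 0.41, adjusted p = 0.0348). The call held without CD11chiMϕ Sham 3 and ended without any 1 of the other 5 libraries (adjusted p 0.080 to 0.228), fits that called 0 genes over all. The C1q chains did not overlap between these groups, with log2 fold changes of 1.58 to 1.82 and adjusted p of 0.082 to 0.10. Without CD11chiMϕ Sham 3, the library with the highest proximal tubule markers, all 3 chains were called higher in CD11chiMϕ (adjusted p 0.029 to 0.033). That fit called 704 genes over all, against 184 with the library. Marker sums of CD11chiMϕ and CD11cloMϕ in Sham kidneys were 434 to 2397 CPM and 4309 to 13691 CPM for monocytes. They were 46.9 to 194 CPM and 906 to 1956 CPM for neutrophils, and 500 to 1971 CPM and 91.7 to 241 CPM for dendritic cells. The part of these cells was not tested. The 3 Sham comparisons share libraries and are not independent of each other.

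The same populations were compared in RAS kidneys. Between KRM and CD11chiMϕ 1 gene was called, where 9.23% of all genes were. Cfp was 12.4-fold lower in KRM (log2 fold change -3.64 ± 0.51, adjusted p = 0.0166), and the call ended without CD11chiMϕ RAS 3 or 4 or KRM RAS 2 or 3 (adjusted p 0.056 to 0.105). The C1q chains and both receptors did not overlap between these groups, with log2 fold changes of 2.12 ± 0.56 for C3ar1 (adjusted p = 0.0527), 2.12 ± 0.57 for C5ar1 (adjusted p = 0.0554) and 1.25 to 1.63 for the chains (adjusted p 0.110 to 0.132). Cfb did not overlap either and was lower in KRM (-0.56 ± 0.20, adjusted p = 0.106). The share of all genes without overlap was not counted here. Without CD11chiMϕ RAS 1, C1qa, C1qc, C4b, C3ar1 and C5ar1 were called higher in KRM as well (adjusted p 0.004 to 0.043), and without KRM RAS 1, C5ar1 was (adjusted p = 0.045). These 2 fits called 2289 and 2788 genes over all, against 1221 with all libraries. C3, which was lower in KRM than in CD11chiMϕ in Sham kidneys, had a log2 fold change of 0.20 ± 0.44 (adjusted p = 0.784) in RAS kidneys. Of the dendritic cell markers 5 of 8 were lower in KRM (sum 202 to 254 CPM against 1203 to 5729 CPM). Of the distal nephron markers 4 of 8 were higher (sum 135 to 4676 CPM against 33.6 to 178 CPM). The part of these cells was not tested.

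Between KRM and CD11cloMϕ in RAS kidneys 3 genes were called, where 9.17% of all genes were. They were Cfp (-2.31 ± 0.32, adjusted p = 0.0156), Cfb (-1.04 ± 0.20, adjusted p = 0.0313) and C4b (-1.91 ± 0.38, adjusted p = 0.0342), all lower in KRM. C3 did not overlap between the groups either (-1.80 ± 0.53, adjusted p = 0.0666), and it was called without KRM RAS 1 (adjusted p = 0.045). Each of the 3 calls ended without CD11cloMϕ RAS 2 or 4 or KRM RAS 2 or 3, and those of Cfb and C4b also without CD11cloMϕ RAS 1 (adjusted p 0.051 to 0.140 in all these fits). In 1 fit over all groups Cfb (adjusted p = 0.315) and C4b (adjusted p = 0.084) were not called, nor was Cfb with the replicate block (adjusted p = 0.0723), and limma called none of the 3 (adjusted p 0.0613 to 0.583). Of the monocyte markers 8 of 8 were lower in KRM (sum 576 to 1007 CPM against 2923 to 7031 CPM), and of the neutrophil markers 5 of 5 tested (65.0 to 125 CPM against 1941 to 3613 CPM), and their part was not tested. The C1q chains overlapped because of CD11cloMϕ RAS 3, and without that library C1qa, C1qb, C1qc and C3ar1 were called higher in KRM, with log2 fold changes of 1.76 to 2.06 (adjusted p 0.008 to 0.015). That fit called 2111 genes over all, against 1208 with the library. CD11cloMϕ RAS 3 also had the highest macrophage marker sum of its group (8341 CPM against 4163 to 5222 CPM) and the lowest monocyte sum (2923 CPM against 5136 to 7031 CPM).

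Between CD11chiMϕ and CD11cloMϕ in RAS kidneys 2 genes were called, where 8.27% of all genes were. C3 was 3.96-fold lower in CD11chiMϕ (-1.99 ± 0.32, adjusted p = 0.00815) and was called in all 8 fits that left out 1 library. C5ar1 was 6.61-fold lower (-2.72 ± 0.68, adjusted p = 0.0395), with groups that overlapped through CD11cloMϕ RAS 1, and its call ended without CD11chiMϕ RAS 2, 3 or 4 or CD11cloMϕ RAS 2, 3 or 4 (adjusted p 0.069 to 0.120) and with the replicate block (adjusted p = 0.0825). C4b had a larger difference (-3.16 ± 0.90) with an adjusted p of 0.0587, and without CD11chiMϕ RAS 1 it was called (adjusted p = 0.001, log2 fold change -5.15), as was Cfp, higher in CD11chiMϕ (adjusted p = 0.007). That fit called 2169 genes over all, against 1018 with the library. C4b was also called with no filter on low counts, in 1 fit over all groups, with the replicate block, by DESeq2 and by limma (adjusted p 0.00693 to 0.0371). Marker sums of CD11chiMϕ and CD11cloMϕ in RAS kidneys were 1283 to 1950 CPM and 2923 to 7031 CPM for monocytes, 12.0 to 334 CPM and 1941 to 3613 CPM for neutrophils, and 1203 to 5729 CPM and 155 to 483 CPM for dendritic cells, and their part was not tested.

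The effect of stenosis within each population was compared next. In KRM 3 of the 9 genes rose in RAS kidneys, where 9.7% of all genes were called, 7.77% higher and 1.94% lower. The count was 0 with the replicate block, 6 by DESeq2 and 5 by limma, whose log2 values for KRM RAS 1 are in doubt. C3 rose 8.15-fold (log2 fold change 3.03 ± 0.43, adjusted p = 0.0165), Cfp 2.98-fold (1.57 ± 0.19, adjusted p = 0.014) and C4b 2.37-fold (1.24 ± 0.26, adjusted p = 0.0321). No KRM RAS library overlapped KRM Sham in any of these genes. Each of the 3 calls ended without KRM Sham 1, 2 or 4 or KRM RAS 2 or 3, with log2 fold changes of 2.70 to 3.07 for C3, 1.43 to 1.60 for Cfp and 0.90 to 1.31 for C4b and adjusted p of 0.051 to 0.108. In these fits 28 to 43 genes were called over all, against 1247 with all libraries. Cfb had a log2 fold change of 1.23 ± 0.67 (adjusted p = 0.231), and without KRM Sham 3 it was 2.40 (adjusted p = 0.012). The C1q chains were lower in every KRM RAS library than in any KRM Sham library but did not pass, with log2 fold changes of -0.86 ± 0.23, -0.83 ± 0.23 and -0.81 ± 0.26 for C1qa, C1qb and C1qc (adjusted p = 0.0526, 0.0582 and 0.0796). Without KRM RAS 1 all 3 were called (-1.07 to -1.13, adjusted p 0.003 to 0.004), in a fit that called 7070 genes over all, against 1247 with that library. C3ar1 (-0.15 ± 0.15, adjusted p = 0.506) and C5ar1 (-0.45 ± 0.19, adjusted p = 0.135) were lower without passing. Groups did not overlap in 8 of the 9 genes, and in 27.6% of all genes.

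Markers of other cells moved with the KRM response. In KRM RAS 3 distal nephron, 3 endothelial, 4 fibroblast and pericyte and 8 T and NK cell markers were called higher, of 6, 6, 6 and 8 tested, and 2 of 8 macrophage markers lower. KRM RAS 1 had a distal nephron sum of 135 CPM, against 12.6 to 13.4 CPM in KRM Sham 1, 2 and 4 and 226 CPM in KRM Sham 3. It had the highest sums of its group for T and NK cell markers (376 CPM against 41.0 and 47.6 CPM) and for B and plasma cell markers (2468 CPM against 409 and 432 CPM). It was the lowest of its group in C3, C4b, Cfb and Cfp, at 66.4 CPM for C3 against 220 and 243 CPM. The summed macrophage markers were at 6961, 3623 and 4648 CPM in KRM RAS 1, 2 and 3, against 7571 to 8462 CPM in KRM Sham, and C1qa, C1qb and C1qc were highest in KRM RAS 1. The part of other cells in these differences was not tested.

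In CD11chiMϕ none of the 9 genes was called between RAS and Sham, where 0% of genes were by edgeR, with 1247 genes and 1 of the 9 (Cfp, log2 fold change 1.64 ± 0.53) at an unadjusted p below 0.05. DESeq2 called 197 genes and limma on the log2 values called none, with none of these calls among the 9. No gene of the 9 had groups apart, where 6.85% of all genes did. The log2 fold changes ran from -1.73 ± 1.01 for C4b to 1.64 for Cfp, and the C1q chains were at -0.68 to -0.90. Without CD11chiMϕ RAS 1 the C4b value was -3.76, and it was called (adjusted p = 0.0483), where 39 genes were over all. In CD11cloMϕ none was called either, where 0% of genes were by edgeR, with 1102 genes and 1 of the 9 (C3ar1, 1.63 ± 0.65) at an unadjusted p below 0.05. DESeq2 called 103 genes and limma none, again with none of the 9. C3ar1 was the only 1 of the 9 whose groups did not overlap, where 8.41% of all genes did not. The C1q chains had log2 fold changes of 1.31 to 1.43, which were 0.45 to 0.47 without CD11cloMϕ RAS 3, as that of C3ar1 was 0.68.

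**Figure D4:**
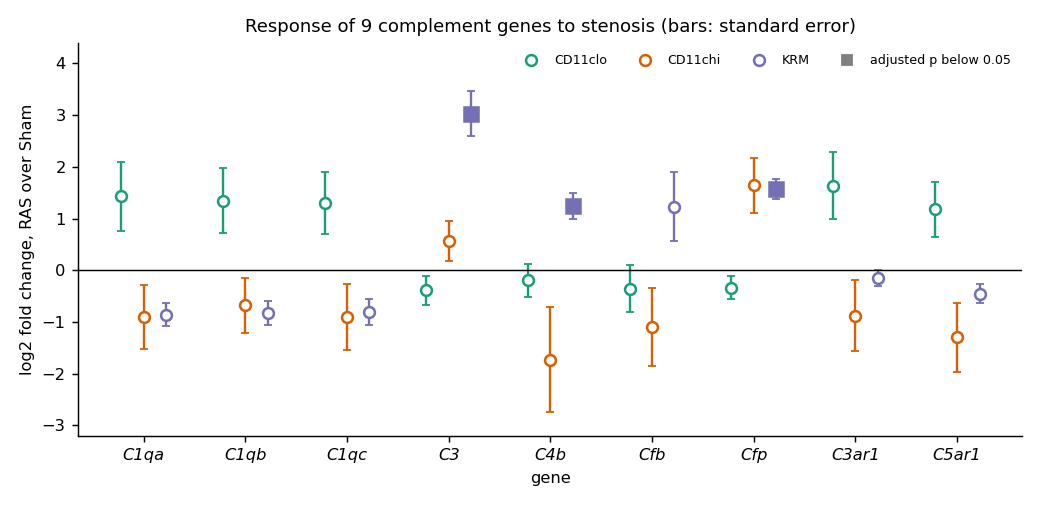
Log2 fold change of RAS over Sham for the 9 genes in each population, with bars of 1 standard error and filled squares where the adjusted p was below 0.05. The squares are C3, C4b and Cfp in KRM, while the C1q chains lie below 0 in KRM and CD11chiMϕ and above 0 in CD11cloMϕ, none of them called.

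Whether the stenosis responses differed between populations was tested as an interaction in 1 fit over the 21 libraries. C3 responded more in KRM than in CD11cloMϕ, by 3.29 ± 0.57 on the log2 scale (adjusted p = 0.023), the 1 call among the 9 where 0.4% of genes were called. It was called in 8 of 14 fits that left out 1 library, the call ending without CD11cloMϕ Sham 2, KRM Sham 1, 2 or 4 or KRM RAS 2 or 3 (adjusted p 0.056 to 0.068). Between KRM and CD11chiMϕ none of the 9 was called, where 0.11% of genes were (edgeR, 3 of the 9 at an unadjusted p below 0.05, and 2 by DESeq2, C3 and C4b). The C3 value was 2.28 ± 0.57 (adjusted p = 0.0663), and C3 was called without CD11chiMϕ Sham 1 (adjusted p = 0.0465) or KRM RAS 1 (adjusted p = 0.00779), as C4b was without CD11chiMϕ RAS 1 (adjusted p = 0.000532). Between CD11chiMϕ and CD11cloMϕ none was called, where 0% of genes were (edgeR, 1458 genes and 6 of the 9 at an unadjusted p below 0.05, and 1 by DESeq2, Cfp). Without CD11chiMϕ RAS 1, C4b, Cfp, C3ar1 and C5ar1 were called (adjusted p 0.0122 to 0.0466), where 280 genes were over all. For the C1q chains the responses of KRM and CD11chiMϕ differed from that of CD11cloMϕ by -2.24 to -2.41 and by -1.99 to -2.30, with adjusted p of 0.171 to 0.202 and 0.436 to 0.441. These contrasts share groups and are not independent.

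The wider complement system was followed in 47 further genes, of which CD11b (Itgam) and CD11c (Itgax), chains of complement receptors 3 and 4, were used for sorting and are given without a test. Itgam was at 852 to 1278 CPM in CD11cloMϕ Sham and at 243 to 328 CPM in KRM Sham, and Itgax at 12.1 to 27.7 CPM and 348 to 431 CPM. Of the other 45 genes, 18 to 24 passed the filter in each pairwise comparison. Most of the terminal pathway, made mainly by liver, was not among them, with 1 to 3 of 7 genes tested.

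Against CD11cloMϕ Sham, 3 of 20 tested genes were higher and 7 lower in KRM Sham, where 19.5% and 22.3% of all genes were. Fcna, a ficolin that starts the lectin pathway, was at 0.60 to 1.67 CPM in KRM Sham against 149 to 757 CPM (adjusted p = 5.91e-05). Vsig4, a receptor for C3 fragments on resident macrophages of several tissues, had at most 1 count in any KRM Sham library and was at 37.1 to 212 CPM in CD11cloMϕ Sham (adjusted p = 4.68e-05). The membrane inhibitor Cd55 was 19.9-fold lower in KRM, at 0.42 to 1.99 CPM against 14.6 to 22.7 CPM (adjusted p = 0.00028), and Lrp1, an endocytic receptor, 5.61-fold lower. Higher in KRM were C2, the partner of C4 in the classical convertase, at 23.5 to 32.3 CPM against 1.97 to 5.97 CPM (7.25-fold, adjusted p = 0.000434), and Gpr77, the gene of the second C5a receptor, at 24.3 to 28.7 CPM against 3.32 to 7.13 CPM (4.99-fold, adjusted p = 0.000363). So among genes of the classical pathway C1q and C2 were higher in KRM Sham than in CD11cloMϕ Sham, and C4b and the protease gene C1ra (4.94 to 6.38 CPM against 14.1 to 20.1 CPM, adjusted p = 0.000722) were lower. Another protease gene of C1, C1s, was not called and overlapped (1.05 to 2.09 CPM against 0.52, 1.97 and 7.18 CPM). Against CD11chiMϕ Sham, 0 of 19 were higher and 2 lower, where 1% and 4.12% of all genes were. Of the 2, Fcna was at 32.2 to 108 CPM in CD11chiMϕ. With only Sham libraries 1, 2 and 4 there were 7 calls of 20 tested, 3 of them higher, and 1493 over all genes. DESeq2 called 6 of 36, 3 of them higher, and 1704 over all genes.

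In RAS kidneys Fcna stayed lower in KRM than in CD11cloMϕ, at 2.66 to 4.32 CPM against 126 to 374 CPM (adjusted p = 0.00831), with Cd55, Lrp1 and Itgb2, the shared chain of complement receptors 3 and 4, making up the 4 of 24 tested genes called lower, where 9.17% of all genes were called in either direction. Cd55 was not called in 1 fit over all groups or with the replicate block, nor Lrp1 by limma. None of the 4 was called without KRM RAS 2 or 3, Fcna alone was without CD11cloMϕ RAS 2 or 4, and Fcna and Lrp1 were without CD11cloMϕ RAS 1. C2 was 5.46-fold higher in KRM than in CD11chiMϕ (adjusted p = 0.028), Itgb2 3.29-fold lower and Lrp1 2.76-fold lower, among 4 higher and 2 lower of 23 tested, where 9.23% of all genes were called. None of the 6 was called with the replicate block or without CD11chiMϕ RAS 3 or 4 or KRM RAS 2 or 3, Itgb2 alone was called without CD11chiMϕ RAS 2, and limma called neither C2, Itgb2 nor Lrp1. Between CD11chiMϕ and CD11cloMϕ, Fcna (14.3-fold) and Cd55 (6.29-fold) were lower in CD11chiMϕ and C1qbp 2.43-fold higher. C1qbp was called in every fit that left out 1 library. The call of Fcna held without CD11chiMϕ RAS 1 and ended without any other library, and that of Cd55 ended without CD11chiMϕ RAS 3 or 4 or CD11cloMϕ RAS 2 or 4.

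In KRM, 8 of 21 tested genes of the wider system rose in RAS kidneys and 2 fell, against 7.77% and 1.94% of all genes. The median log2 fold change was 0.22 over the list and 0.02 over all genes. Clu (clusterin), a soluble inhibitor that injured tubules also make, was at 0, 0.32, 0.60 and 0.73 CPM in KRM Sham and at 27.5, 2382 and 1742 CPM in KRM RAS (adjusted p = 0.016). Its 2 high libraries were those with high distal nephron markers. The C1 protease genes C1s (1.05 to 2.09 CPM against 2.26, 21.1 and 26.6 CPM, adjusted p = 0.0331) and C1ra (4.94 to 6.38 CPM against 8.05, 17.7 and 21.5 CPM, adjusted p = 0.0327) were likewise lowest in KRM RAS 1. C2 fell from 23.5 to 32.3 CPM in Sham to 17.3, 14.1 and 12.0 CPM in RAS (adjusted p = 0.0387), and Gpr77 from 24.3 to 28.7 CPM to 18.4, 13 and 15.1 CPM (adjusted p = 0.0425). Of the 8 genes that rose, Clu, Cd55 (0.42 to 1.99 CPM in KRM Sham) and Fcna (0.60 to 1.67 CPM) passed the filter through KRM RAS. They could hardly be called lower. With no filter on low counts 11 of 41 were called, 9 of them higher, where 1616 genes were over all. All 10 calls above ended without KRM Sham 1, 2 or 4 or KRM RAS 2 or 3, fits that called 28 to 43 genes over all. With the replicate block 1 gene was called (Clu). Without KRM Sham 3 there were 6 calls and in 1 fit over all groups 5, with C2 and Gpr77 in neither and C1ra in the second alone. Limma, with the KRM RAS 1 column in doubt, called neither C1s nor Gpr77. By edgeR 0 of 18 genes were called in CD11chiMϕ and 0 of 24 in CD11cloMϕ, 2 and 1 having an unadjusted p below 0.05. DESeq2 called 1 of 35 (C2, lower in RAS) and 0 of 37 in the same comparisons, and limma 0 of 21 in each.

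**Figure D5:**
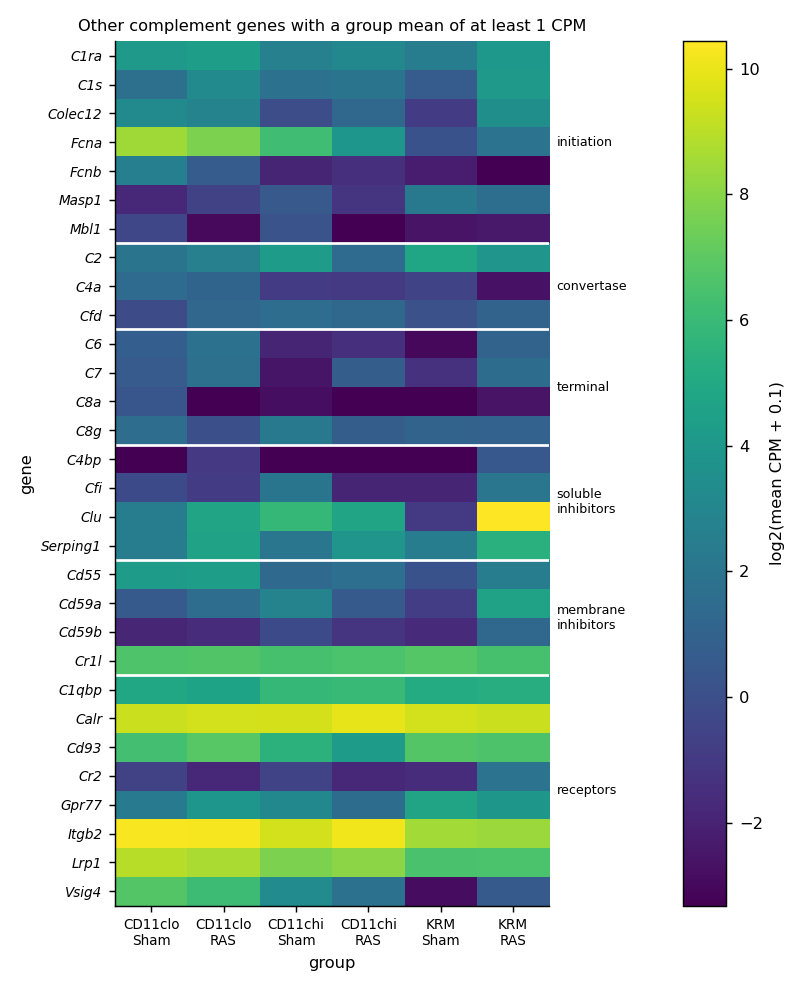
Mean level of 30 further complement genes with a group mean of at least 1 CPM, as log2(mean CPM + 0.1) in each of the 6 groups, ordered by role. Fcna and Vsig4 are bright in the CD11cloMϕ groups and dark in KRM Sham, and Clu is bright in KRM RAS.

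The genes whose pattern over the 21 libraries was most like that of the 9 were found among 8893 genes by Pearson r of log2 CPM, as a description over libraries that share groups. The mean of the C1q chains was matched best by Adap2 (0.977), Ntpcr (0.971) and Kcnk13 (0.962), and C3ar1 by Itgb5 (0.981), which was also among the 5 nearest to the C1q chains (0.957). C5ar1 was nearest to Gpr77 (0.924), whose protein binds the same fragment, with Emr1 (0.916), the gene of the F4/80 antigen, and Fcgr1 (0.914), that of CD64, also among its 5 nearest. C3 was nearest to Osm (0.956), which encodes the cytokine oncostatin M, and C4b to Cbr2 (0.935), with Lyve1 (0.894) among its 5. Cfp was nearest to 1810033B17Rik (0.975), Lyz1 (0.972) and Dok2 (0.965). Cfb was nearest to Cycs (0.870), the gene of cytochrome c. Among the 9 themselves C1qa had r of 0.925 with C3ar1, -0.841 with Cfp and -0.742 with C3.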

How the data were processed

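RNA of sorted F4/80+CD64+ macrophages was sequenced in 21 libraries. The authors aligned paired-end reads to mm10 (build and DESeq2 per the submitters' processing notes) with OmicSoft's OSA aligner and Ensembl annotation, and deposited estimated counts per gene, the unit of every test but one. Their second deposited table holds TPM on a log2 scale after quantile normalization and served for limma only. Its KRM RAS 1 column matched the counts less well (Spearman 0.688) than the other 20 did (0.908 to 0.948), so whether it is the same library is in doubt. The KRM RAS 1 counts were nearest to the log2 column of KRM Sham 4, but so were those of KRM Sham 1. Those of KRM RAS 2 were nearest to the column of KRM RAS 3. Counts were rounded, and 3730 lines sharing a symbol were summed. Genes passed filterByExpr (minimum count 10, total 15) in each comparison. Groups and replicate numbers came from the labels, which hold more RAS libraries of CD11chiMϕ and CD11cloMϕ than the methods list, and all labelled libraries were used. No 2 libraries of a group agreed within sampling noise (lowest chi-square per degree of freedom 5.13, CD11chiMϕ RAS 3 and 4). Other pairs of CD11chiMϕ RAS had 94.3 to 128. KRM RAS 2 and 3 had 10.1, against 107 and 136 for their pairs with KRM RAS 1. Whether the libraries of the close pairs are independent was not tested. Pairs of groups were tested with TMM factors and edgeR 4.0.16 (R 4.3.3) without a block, and the difference in response in 1 fit. DESeq2 1.42.0, limma 3.58.1, RLE factors, no filter, 1 fit over all groups, the replicate block, leaving out each library and leaving out the third Sham libraries were alternatives, and the longest transcript was one for lengths. Deviations of same-numbered Sham libraries from their group means correlated (lowest r 0.201 to 0.349), which cannot show that the numbers pair the libraries. The scripts were tested on simulated data.

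The 9 genes and all lists were chosen with earlier results of these data known. Of other complement genes, up to 6 per comparison qualified to be named by the largest change among those called, with groups apart and a mean log2 CPM not under 3, and the 5 genes most alike in pattern were found by Pearson r. C1ra and C1s in CD11cloMϕ Sham were named after their values were seen. From the plot of the wider complement list 1 gene was left out, and it is not reported here. Positions come from GENCODE on GRCm38 and promoters from RefSeq.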

Additional observations from a re-analysis of the deposited data

Results flagged for a closer look

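Within groups of at least 4 libraries, 7 of 36 sets of values (levels of the 9 genes and the shares of the 3 C1q chains) held 1 library far from the rest, by a criterion that chance meets in about 1 in 20 groups. Of these, 4 concerned CD11cloMϕ RAS 3, with C1qa at 1959 CPM (306 to 450 CPM in the other 3 libraries), C1qb at 4358 CPM (700 to 1184 CPM), C1qc at 2622 CPM (506 to 685 CPM) and C3ar1 at 787 CPM (127 to 218 CPM). C4b was at 78.0 CPM in CD11chiMϕ RAS 1, against 4.37 to 7.61 CPM in the other libraries of its group. Cfb was at 53.4 CPM in KRM Sham 3, against 8.30 to 10.4 CPM, and C3 was at 16.5 CPM in KRM Sham 1, against 25.0 to 26.5 CPM. The C3 response to stenosis differed between KRM and CD11cloMϕ, by 3.29 on the log2 scale in the test of the interaction.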

How the results depend on the processing

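Of the 9 genes, 6 were called between KRM and CD11chiMϕ in Sham kidneys, against 2 with no filter on low counts, 3 in 1 fit over all 6 groups, 2 with the replicate block and 1 by limma on the log2 table. Between CD11chiMϕ and CD11cloMϕ in Sham kidneys 1 was called, against 5 by DESeq2 and 5 with only Sham libraries 1, 2 and 4. In RAS kidneys the counts of KRM against CD11chiMϕ were 1, against 3 with no filter, 3 in 1 fit over all groups and 6 by DESeq2, those of KRM against CD11cloMϕ were 3, against 0 by limma (with the KRM RAS 1 column in doubt), and those of CD11chiMϕ against CD11cloMϕ were 2, against 4 in 1 fit over all groups and 4 by DESeq2. For RAS against Sham in KRM the count was 3, against 0 with the block, 6 by DESeq2 and 5 by limma (with the same column in doubt). For the difference in response it was 0 between KRM and CD11chiMϕ, against 1 with no filter and 2 by DESeq2, 1 between KRM and CD11cloMϕ, against 2 by DESeq2 and 2 with only Sham libraries 1, 2 and 4, and 0 between CD11chiMϕ and CD11cloMϕ, against 1 by DESeq2. With 1 library left out, the counts in the same order were 1 to 7, 0 to 4, 0 to 6, 0 to 7, 1 to 4, 0 to 6, 0 to 1, 0 to 1 and 0 to 4, and they were 8 to 9 between KRM and CD11cloMϕ in Sham kidneys and 0 to 1 and 0 to 0 for RAS against Sham in CD11chiMϕ and CD11cloMϕ. The calls over all genes in these fits were 155 to 1717, 0 to 704, 14 to 2788, 0 to 3239, 256 to 2169, 28 to 7070, 0 to 1469, 4 to 574 and 0 to 280 in that order. They were 4007 to 5940, 0 to 39 and 0 to 0 in the last 3 comparisons. The C1q shares of C1qa, C1qb and C1qc by the longest transcript were 22.4%, 50.9% and 26.8%. Signs turned where the gene was called in neither fit. In CD11chiMϕ against CD11cloMϕ Sham, Cfb (0.34) was -0.30 with the block, -0.39 by limma and -0.95 with only Sham libraries 1, 2 and 4, where C5ar1 was 0.13. With only those libraries Cfb was 0.85 and 0.44 for RAS against Sham in CD11chiMϕ and CD11cloMϕ and 0.48 for the difference between them, and C4b in CD11cloMϕ was 0.026 with the block. In the response of KRM minus CD11chiMϕ, C1qa was 0.0072 with RLE factors, 0.0077 by DESeq2 and 0.021 with only Sham libraries 1, 2 and 4, C1qc was 0.0597, 0.0601 and 0.0637 in these and 0.041 with no filter, and Cfp was 0.000897 with the block. With 1 library left out, log2 fold changes that turned ran from -1.70 to 1.10 for Cfb and -0.63 to 0.10 for C5ar1 (CD11chiMϕ against CD11cloMϕ, Sham), from -0.073 to 0.57 for C3 (KRM against CD11chiMϕ, RAS), from -0.98 to 0.46, -0.60 to 0.55 and -1.21 to 0.20 for C1qa, C1qb and C1qc (CD11chiMϕ against CD11cloMϕ, RAS), from -1.55 to 0.85 for Cfb in CD11chiMϕ and from -0.40 to 0.022 for C4b and -0.73 to 0.44 for Cfb in CD11cloMϕ (RAS against Sham). In the difference in response they ran from -0.53 to 0.34 for C1qa, -0.41 to 0.51 for C1qc, -0.20 to 1.38 for C3ar1 and -0.76 to 0.14 for Cfp (KRM minus CD11chiMϕ) and from -1.37 to 1.14 for Cfb (CD11chiMϕ minus CD11cloMϕ). The cause was not tested in any of these.

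Deviations of same-numbered libraries had r of 0.0535 to 0.505 in RAS kidneys and -0.196 to 0.325 between RAS and Sham, so not every pair was over 0.1. The block rests on the number alone there, and in Sham kidneys too, where the correlations cannot show pairing. Over all genes the block changed the calls from 635 to 89 (KRM against CD11chiMϕ, Sham), 184 to 595 (CD11chiMϕ against CD11cloMϕ, Sham), 1221 to 101 (KRM against CD11chiMϕ, RAS), 1247 to 42 (RAS against Sham, KRM), 16 to 41 and 58 to 24 (difference in response of KRM with CD11chiMϕ and CD11cloMϕ). DESeq2 called 1704, 1052, 3025, 3481, 2016, 4027, 1336, 583 and 92 genes where edgeR called 635, 184, 1221, 1208, 1018, 1247, 16, 58 and 0, in the order of the counts above. Limma, whose table has the poorly matching KRM RAS 1 column, called 389, 103, 572, 735 and 2599 where edgeR called 635, 184, 1221, 1208 and 1247. The fit over all groups called 3447 against 5178 between KRM and CD11cloMϕ Sham, and 818, 2138, 1840, 1729 and 5 where edgeR called 184, 1221, 1208, 1018 and 0 (the last in CD11chiMϕ). With no filter the calls were 395, 95 and 135 against 635, 184 and 16, with RLE factors 80 against 16, and with only Sham libraries 1, 2 and 4 they were 1493, 1897, 0 and 36 against 635, 184, 16 and 58. Depth limits genes near 1 CPM, such as Clu or Cd55 in KRM Sham.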
